A study of Mus musculus with 10 samples.

Results

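The bone morphogenetic protein (BMP) and transforming growth factor beta (TGF-beta) pathways were examined in the first pharyngeal arch (PA1), the embryonic tissue from which the upper and lower jaws and the secondary palate grow. The members are a list of 54 genes, taken by symbol from the 22114 protein-coding genes of the count table. It holds 8 BMP ligands, 6 ligands of the TGF-beta, activin and GDF11 type, 12 receptors and co-receptors, 6 signalling Smads, 5 intracellular inhibitors, 8 extracellular modulators, 4 genes of latent TGF-beta binding and matrix, the 4 *Id* genes and *Tmem100*. A gene was tested if at least 1 arch held at least 10 reads, which 53 of the 54 members and 14561 genes in all passed. *Inhba*, which encodes a subunit of activin, had between 0 and 4 reads in every arch and was not tested.

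PA1 was dissected from mouse embryos at E10.5 (embryonic day), on a C57BL/6 background per the labels (C57BL/6J in the study's methods) and all male per those methods, and each library is 1 PA1 sample. There were 5 wild-type arches and 5 *Grhl2*-/- arches, homozygous for a null allele that was carried in the germline, so the gene was lost in every tissue of the embryo. GRHL2 is a transcription factor of surface epithelia, and the comparison asks which genes of the whole arch differ when it is lost. Whole arches hold epithelium, neural crest mesenchyme, vessels, nerve and blood, so fewer cells of a type and less RNA per cell cannot be told apart in any value given here.

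Ligands of both pathways bind pairs of type I and type II serine/threonine kinase receptors, which phosphorylate receptor-regulated Smads. BMP receptors act on SMAD1, SMAD5 and SMAD9, TGF-beta and activin receptors act on SMAD2 and SMAD3, and both groups enter the nucleus with SMAD4. Secreted antagonists such as noggin hold ligands away from their receptors, latent TGF-beta binding proteins store TGF-beta in the matrix, and the inhibitory Smads and Smurf ligases damp the signal inside the cell. In the face, BMP and TGF-beta signals pattern the jaw, drive outgrowth of the facial processes and take part in palate fusion.

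Total counts ran from 22188454 to 28801378 reads per arch, and 3 reads corresponded to 0.104 to 0.136 CPM, the read count scaled to library depth, a floor that covers counting error only. Library depth was scaled with TMM factors (trimmed mean of M-values). *Grhl2* itself was at 35.6 ± 3.29 CPM (SD, n = 5) in wild-type and 4.53 ± 1.45 CPM (SD, n = 5) in *Grhl2*-/- arches, and no arch went against its label. Among markers of other cell types, wild-type arches 1 and 2 stood apart with summed sensory neuron markers of 142.6 and 124.5 CPM, against 334.3 to 1050 CPM in the other 8 arches.

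Of the 53 members tested with limma-voom, 1 was downregulated and 4 were upregulated in *Grhl2*-/- PA1 at a false discovery rate (FDR) below 0.01, adjusted over all 14561 genes. The downregulated member was *Gdf6* and the upregulated members were *Bmp2*, *Ltbp1*, *Tgfbr3* and *Tmem100*. These counts are 1.89% and 7.55% of the members, where 1.09% of all genes were called lower and 0.879% were called higher. The list was chosen with earlier results of these data known. The study had already reported *Bmp2*, *Tgfbr3* and *Tmem100* as upregulated, so the higher share is no independent sign of an excess. A second tier of members had FDR below 0.05 and 5 mutant arches that all lay on one side of the 5 wild-type arches. With this rule 9 members were higher, namely *Bmp2*, *Bmp4*, *Bmp5*, *Tgfbr3*, *Nog*, *Fst*, *Ltbp1*, *Id3* and *Tmem100*, and *Gdf6* alone was lower. That is 17.0% and 1.89% of the members, against 2.97% and 3.18% of all genes. Without regard to FDR, the groups did not overlap in 10 members that were higher and 1 that was lower, and the same held for 4.22% and 4.66% of all genes. Of the 9 higher members, *Bmp4*, *Bmp5*, *Fst* and *Id3* had an FDR that rose above 0.05 when some single arches were left out, as given with each. With both wild-type arches low in sensory neuron markers left out, these 4 had FDR of 0.0858, 0.172, 0.163 and 0.195, while DESeq2 called all 4 and *Nog* at FDR below 0.01. The median log2 fold change of the 53 members was 0.09 and 66.0% of them lay above 0, while over all genes the median was 0.01 and 52.7% lay above 0.

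**Figure D1:**
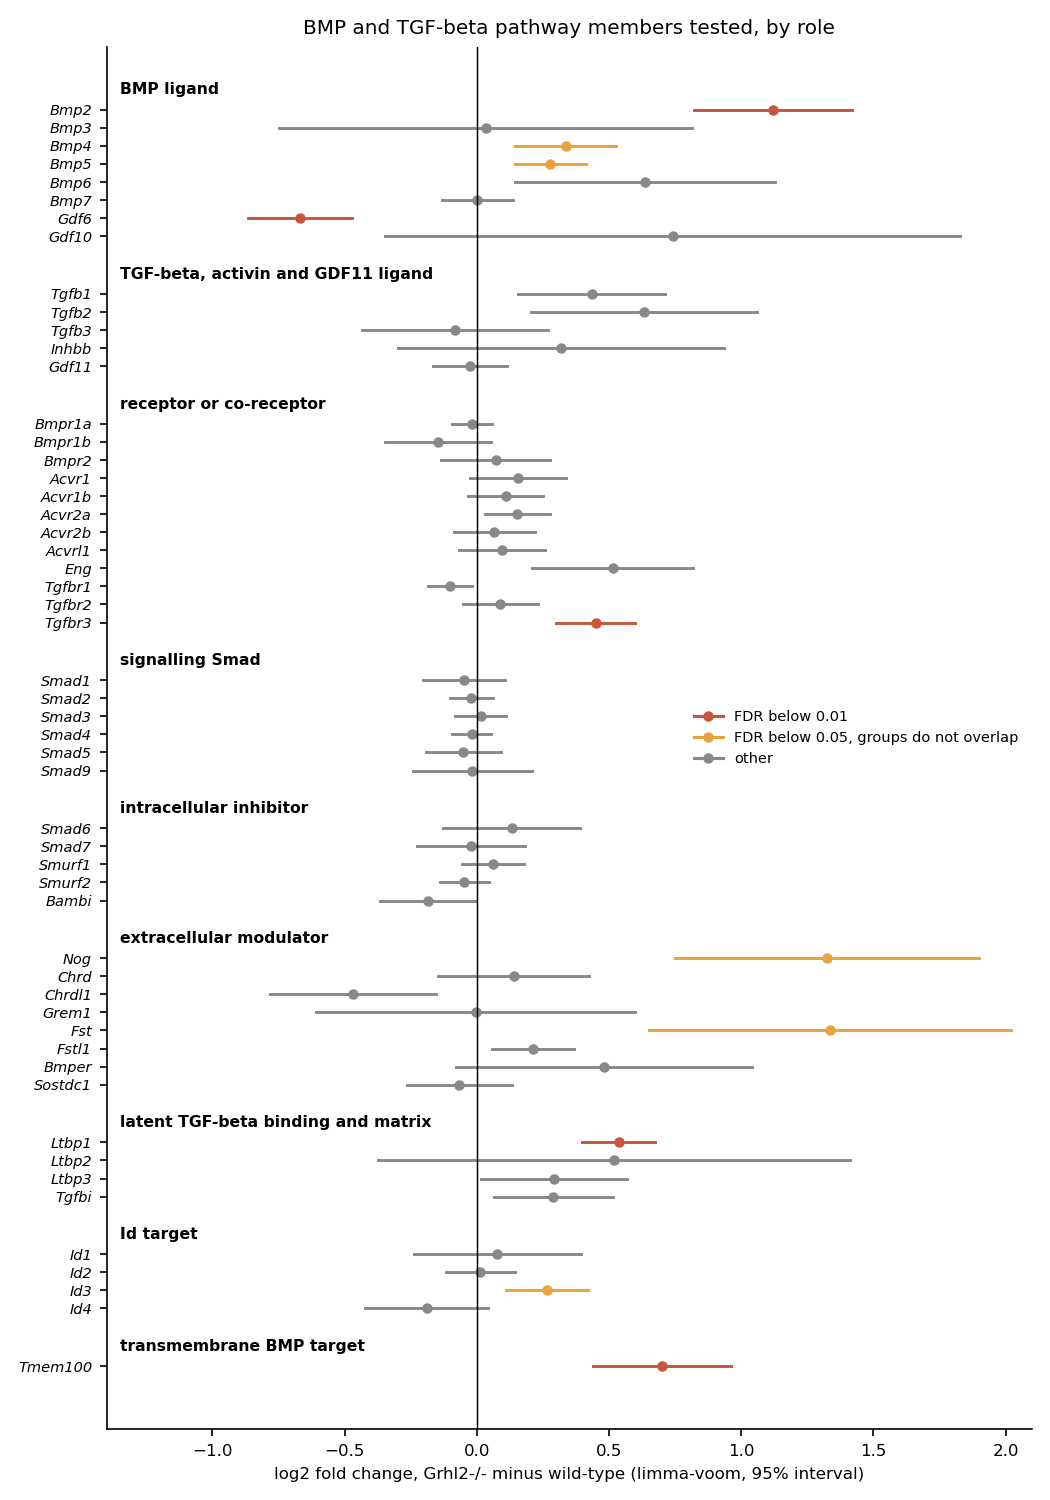
Log2 fold change (*Grhl2*-/- minus wild-type, x axis) of each of the 53 members tested, grouped by role on the y axis, with points for limma-voom estimates and bars for 95% intervals. The 5 members called at FDR below 0.01 are red, the 5 further members with FDR below 0.05 and groups that do not overlap are orange, and the 6 signalling Smads all sit close to 0.

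The members differed widely in level. Per kb of exon, *Id3* was the most abundant in wild-type arches at 108.7 CPM per kb, followed by the type I TGF-beta receptor *Tgfbr1* at 77.8, the secreted glycoprotein gene *Fstl1* at 70.4 and *Id2* at 68.3. The type I BMP receptor *Bmpr1a* stood at 65.2 CPM per kb and *Smad4* at 55.9. The ligands and antagonists lay lower on the same scale. *Gdf11* led the ligands at 24.8, and *Bmp7* (10.6) and *Bmp4* (9.84) led the BMP ligands with intervals of spread that overlap (SD 0.873 and 0.954). *Bmp2* (0.692), *Nog* (0.530) and *Fst* (0.378) were among the scarce members, and *Gdf10* and *Ltbp2* were at 0.0388 and 0.0279 CPM per kb.

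**Figure D2:**
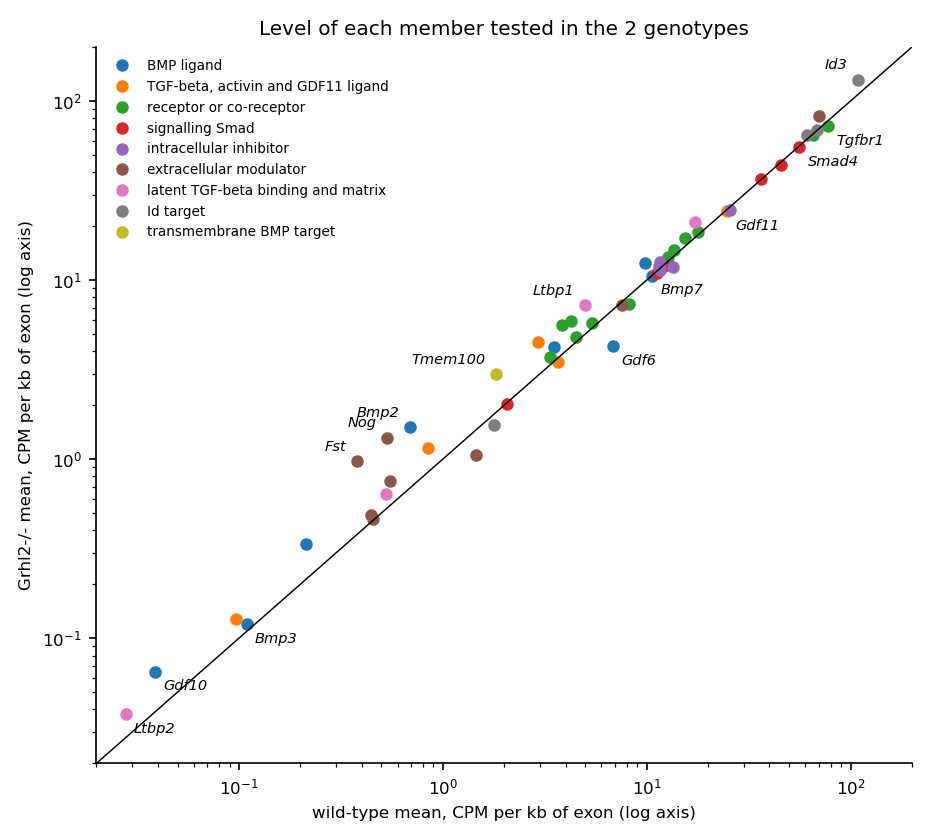
Mean level of each of the 53 members tested, in CPM per kb of exon on log axes, in wild-type (x axis) and *Grhl2*-/- arches (y axis), coloured by role, with the line of equal level. Receptors and Smads lie along the line over the upper part of the range, and *Bmp2*, *Nog* and *Fst* lie above it near 0.5 CPM per kb.

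Among the BMP ligands, *Bmp2* rose and *Gdf6* fell. *Bmp2* encodes a ligand that is needed in early neural crest and in heart cushion formation. It was at 1.91, 3.27, 2.58, 2.40 and 2.14 CPM in wild-type arches 1 to 5, and at 5.67, 4.88, 5.09, 5.98 and 5.14 CPM in *Grhl2*-/- arches 1 to 5. Every mutant arch was above every wild-type arch, and the lowest mutant value was 4.88 CPM against a highest wild-type value of 3.27 CPM. The increase was 2.18-fold (log2 fold change 1.12, SE 0.14, FDR 0.000752, limma-voom), from read numbers of 42 to 91 per wild-type arch and 126 to 168 per mutant arch. *Bmp2* lies on chromosome 2 (GRCm38, 133552159 to 133562885, plus strand).

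*Gdf6* encodes a BMP-type ligand that takes part in joint, skull and eye development. Its level was 25.8, 27.5, 22.0, 21.6 and 24.1 CPM in wild-type arches 1 to 5 and 15.4, 13.6, 17.7, 15.0 and 14.0 CPM in *Grhl2*-/- arches 1 to 5. The groups did not overlap, since the highest mutant arch reached 17.7 CPM and the lowest wild-type arch 21.6 CPM. The decrease was 1.59-fold (log2 fold change -0.67, SE 0.09, FDR 0.00136). With the number in the labels as a replicate block, the log2 fold change was -0.57 and the FDR 0.0268, so that no member was called lower in that fit. That fit takes nothing from mutant arches 2 and 5, whose numbers no other arch carries. *Gdf6* lies on chromosome 4 (9844372 to 9862345, plus strand). Summed neural crest mesenchyme markers were 1322 to 1707 CPM in wild-type and 1114 to 1396 CPM in mutant arches, with 0 of 7 markers called at FDR below 0.01 and the lowest FDR those of *Twist1* (0.0189) and *Hand2* (0.0368), both lower in the mutants. Their part in the *Gdf6* result was not tested.

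*Bmp4* and *Bmp5* were higher by smaller amounts. *Bmp4*, a ligand made by facial epithelium and later by mesenchyme, was at 25.3, 22.7, 20.6, 22.4 and 19.7 CPM in wild-type arches 1 to 5 and at 32.9, 26.2, 29.0, 25.3 and 25.9 CPM in mutant arches 1 to 5. The groups were separated by a narrow margin, with wild-type arch 1 (25.25 CPM) just below mutant arch 4 (25.30 CPM). The log2 fold change was 0.34 (SE 0.09, FDR 0.0398). *Bmp5*, a ligand of the same subfamily as *Bmp7*, was at 13.3, 13.8, 13.8, 15.7 and 13.9 CPM in wild-type arches and at 16.9, 16.0, 18.0, 17.0 and 17.7 CPM in mutant arches. Its groups were also adjacent, at 15.7 CPM for wild-type arch 4 and 16.0 CPM for mutant arch 2, and the log2 fold change was 0.28 (SE 0.06, FDR 0.0232). An antisense gene, *Gm26903*, overlaps 1878 exon bases of *Bmp5*. The library kit keeps strand and the deposited table is named as a reverse-strand count, while the methods text gives no strand setting. Without wild-type arch 1, 2 or 5 or mutant arch 5, the FDR of *Bmp5* was between 0.0508 and 0.0637. That of *Bmp4* was between 0.0508 and 0.0862 without wild-type arch 2, 3, 4 or 5 or mutant arch 2, 3, 4 or 5.

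The other 4 BMP ligands were not called. *Bmp7*, which acts in epithelia of the eye, kidney and face, was at 42.6 ± 3.51 CPM (SD, n = 5) in wild-type and 42.5 ± 2.46 CPM (SD, n = 5) in mutant arches, and the interval of its log2 fold change was -0.13 to 0.14. *Bmp6* had a log2 fold change of 0.64 (SE 0.22, FDR 0.0976). *Bmp3* and *Gdf10*, at mean levels of 0.808 and 0.202 CPM in wild-type arches, had intervals of -0.75 to 0.82 and -0.35 to 1.83, so at this depth a change of 1.5-fold in either direction was within the interval of *Bmp3*.

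The sequence before the start of *Bmp4* is shown because it is the only described BMP ligand with a RefSeq promoter window that reaches into no annotated exon. The window holds the 250 bases before the start on the minus strand, chr14:46390670-46390919 of GRCm38.p6. Capitals mark AGAC, the reverse complement of the Smad half-site GTCT, and CAGGTG, the E-box that ZEB and SNAI repressors bind.
Bmp4: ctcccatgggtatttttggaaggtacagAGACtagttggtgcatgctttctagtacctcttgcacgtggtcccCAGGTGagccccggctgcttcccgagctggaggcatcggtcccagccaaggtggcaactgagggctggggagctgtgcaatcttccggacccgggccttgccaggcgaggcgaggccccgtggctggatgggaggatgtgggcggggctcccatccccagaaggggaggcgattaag
The E-box begins 177 bases before the start and the half-site 222 bases before it. CAGGTG on either strand was found in 17.2% of the 32851 promoter windows of the genome, and GTCT on either strand in 82.9%, so both matches are common.

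None of the TGF-beta, activin and GDF11 ligands was called in the fit with genotype as the only term. *Tgfb1*, a ligand of endothelium and blood, was at 4.45, 4.21, 4.88, 3.42 and 4.40 CPM in wild-type arches 1 to 5 and 5.57, 6.97, 4.88, 6.23 and 5.33 CPM in mutant arches 1 to 5. Wild-type arch 3 and mutant arch 3 had nearly the same value, and the log2 fold change of 0.44 had SE 0.13 and FDR 0.058. *Tgfb2*, a ligand of mesenchyme and neural tissue, had a log2 fold change of 0.63 (SE 0.20, FDR 0.0688), and mutant arch 5 (16.0 CPM) lay inside the wild-type range of 12.8 to 22.4 CPM. With the replicate block, a fit that takes nothing from mutant arch 5, *Tgfb2* was called higher at FDR below 0.01. *Tgfb3*, the ligand best known for its part in palate fusion, was at 12.4 ± 2.21 CPM (SD, n = 5) in wild-type and 11.7 ± 2.48 CPM (SD, n = 5) in mutant arches, with an interval of -0.43 to 0.27. *Gdf11* had an interval of -0.17 to 0.11 and *Inhbb* of -0.30 to 0.94.

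**Figure D3:**
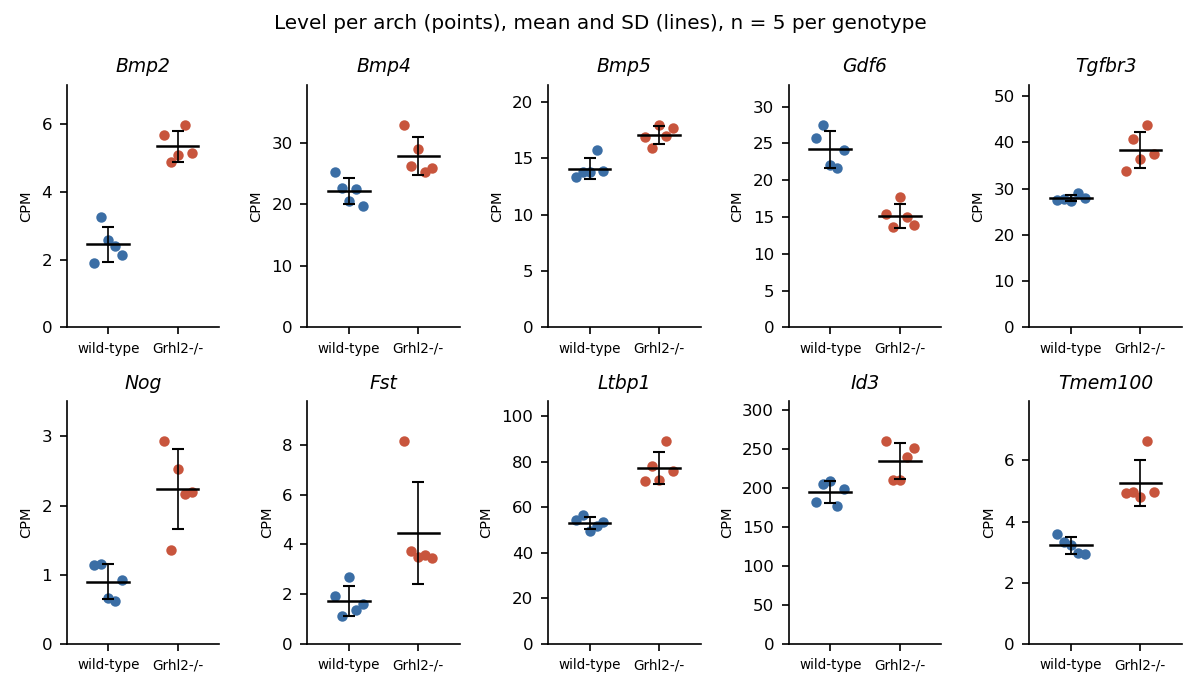
Level in CPM (y axis, from 0) of the 10 members with FDR below 0.05 and groups that do not overlap, in each wild-type and *Grhl2*-/- arch (points), with the mean and SD of 5 arches (lines). *Gdf6* is the only one that is lower in the mutants, and in *Fst* a single mutant arch lies far above the other 4.

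Of the 12 receptors and co-receptors, *Tgfbr3* was upregulated and none was downregulated. *Tgfbr3* encodes betaglycan, a co-receptor that presents TGF-beta2 and also binds BMP2 and inhibin. Its wild-type values were close together, at 27.6, 27.9, 27.3, 29.2 and 28.0 CPM in arches 1 to 5, and its mutant values were 33.8, 40.8, 36.3, 43.8 and 37.4 CPM. The groups did not overlap, and the mutant arches were more spread out (SD 3.91 CPM) than the wild-type arches (SD 0.704 CPM). The increase was 1.37-fold (log2 fold change 0.45, SE 0.07, FDR 0.00317). Leaving out wild-type arch 1, 2, 3 or 5 or mutant arch 2 or 5 moved the FDR to between 0.011 and 0.0129, above the threshold, and it was 0.0172 with the replicate block and 0.0466 without both wild-type arches low in sensory neuron markers. *Tgfbr3* lies on chromosome 5 (107106570 to 107289629, minus strand), and *Gm43422*, an unconfirmed transcript on the same strand, covers 297 of its exon bases.

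*Eng* encodes endoglin, an endothelial co-receptor that works with the type I receptor ALK1, the product of *Acvrl1*. It was at 13.8, 17.0, 17.5, 13.2 and 16.6 CPM in wild-type arches 1 to 5 and 22.3, 24.7, 16.1, 26.8 and 23.3 CPM in mutant arches 1 to 5. Mutant arch 3 lay inside the wild-type range and the other 4 mutant arches lay above it. The log2 fold change was 0.51 (SE 0.14, FDR 0.0463), while that of *Acvrl1* was 0.10 (SE 0.07, FDR 0.412). *Eng* was among the called members when mutant arch 3, the overlapping one, was left out, and in none of the other 9 fits that left out 1 arch. DESeq2 called it higher at FDR below 0.01 with all 10 arches.

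The most abundant receptors were not called. *Bmpr1a*, the type I BMP receptor of neural crest, was at 414.1 ± 15.2 CPM (SD, n = 5) in wild-type and 408.6 ± 11.4 CPM (SD, n = 5) in mutant arches, with an interval of -0.09 to 0.06. *Tgfbr1* was at 508.2 ± 10.6 CPM (SD, n = 5) and 474.4 ± 24.0 CPM (SD, n = 5), with a log2 fold change of -0.10 (SE 0.04, FDR 0.114) and mutant arch 3, at 515.6 CPM, among the wild-type values. The largest value of the remaining receptors was the log2 fold change of 0.16 of *Acvr1* (FDR 0.239), followed by 0.15 of *Acvr2a* (FDR 0.107). *Bmpr1b*, a type I receptor of cartilage condensations, had the lowest at -0.15 (FDR 0.303).

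No signalling Smad was called, and these genes gave the tightest estimates of any role. The 6 log2 fold changes ran from -0.05 to 0.01, FDR from 0.638 to 0.931, and no 95% interval reached beyond -0.24 to 0.21. *Smad4*, the common partner of both branches, was at 207.6 ± 5.61 CPM (SD, n = 5) in wild-type and 204.8 ± 5.87 CPM (SD, n = 5) in mutant arches. The lowest FDR of the role was that of *Smad5* (0.638) and the next that of *Smad1* (0.678), both of the BMP branch, and the highest were those of *Smad9* (0.931) and *Smad3* (0.860). These are transcript levels, and phosphorylation of Smads was not measured here.

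No intracellular inhibitor was called. *Smad6* and *Smad7*, which block receptor-bound Smads and are themselves induced by the signal, were at log2 fold changes of 0.13 with FDR 0.484 and of -0.02 with FDR 0.904. The ubiquitin ligase genes *Smurf1* and *Smurf2* had intervals of -0.06 to 0.18 and -0.14 to 0.05. *Bambi*, a pseudoreceptor that lacks the kinase domain and follows BMP signals in many tissues, had the lowest FDR of the role, at 0.171 for a log2 fold change of -0.18.

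Among the extracellular modulators, *Nog* and *Fst* had the largest log2 fold changes of all 53 members, although neither passed FDR 0.01. *Nog* encodes noggin, which binds BMP2, BMP4 and other BMPs. It was at 1.14, 1.15, 0.662, 0.618 and 0.929 CPM in wild-type arches 1 to 5 and at 2.93, 1.36, 2.53, 2.17 and 2.20 CPM in mutant arches 1 to 5. The groups did not overlap, and mutant arch 2 was the one nearest to wild-type. These levels rest on 17 to 32 reads per wild-type arch and 35 to 82 per mutant arch. The difference was 2.50-fold (log2 fold change 1.32, SE 0.26, FDR 0.0138), and with 1 arch left out the FDR was 0.00473 without mutant arch 2, the lowest one, and 0.0157 to 0.0369 without any other.

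*Fst* encodes follistatin, which binds activins and some BMPs. It was at 1.91, 1.11, 2.68, 1.35 and 1.62 CPM in wild-type arches 1 to 5. In mutant arches 2 to 5 it was between 3.44 and 3.72 CPM, and in mutant arch 1 it was 8.13 CPM. All mutant arches lay above the wild-type arches, with a log2 fold change of 1.34 (SE 0.31, FDR 0.0284). Without mutant arch 1 the log2 fold change was 1.09 and the FDR 0.0109, while without wild-type arch 1, 2, 4 or 5 or mutant arch 2 the FDR was between 0.0571 and 0.0773. It was 0.00741 with the replicate block and 0.000496 with DESeq2. Mutant arch 1 also had the highest sum of neural tube markers, 86.6 CPM, against 40.6 to 49.2 CPM in the other mutant arches and 20.8 to 36.6 CPM in the wild-type arches. Of this list of 6 markers, *Olig2* and *Nkx2-2* had too few reads to be tested and 0 of the 4 tested were called at FDR below 0.01. *Sox2* (FDR 0.0202) and *Sox1* (FDR 0.0472) were higher in the mutants below 0.05, and *Pax6* was at a mean of 2.32 CPM in wild-type and 13.0 CPM in mutant arches (FDR 0.129). The sums did not overlap between the genotypes. *Nog* was also highest in mutant arch 1, and the part of neural tissue in the *Nog* and *Fst* results was not tested.

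The 6 modulators that remain had FDR between 0.0658 and 0.994. *Chrdl1*, a chordin-like BMP antagonist, was the only one of them with a negative interval, at a log2 fold change of -0.47 (SE 0.14, FDR 0.0658). *Fstl1* was at 345.7 ± 11.8 CPM (SD, n = 5) in wild-type and 402.6 ± 48.2 CPM (SD, n = 5) in mutant arches, with FDR 0.0839. Chordin, the product of *Chrd*, and gremlin, the product of *Grem1*, are BMP antagonists of other families, and their genes had log2 fold changes of 0.14 and -0.0045. *Sostdc1*, an antagonist of BMP and Wnt signals in tooth and skin epithelium, had an interval of -0.27 to 0.13.

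In the group of latent TGF-beta binding and matrix genes, *Ltbp1* was upregulated. LTBP1 tethers latent TGF-beta to fibrillin-rich matrix, from which integrins can release it. *Ltbp1* was at 54.2, 56.8, 49.7, 51.9 and 53.4 CPM in wild-type arches 1 to 5 and at 71.4, 78.2, 72.2, 88.9 and 75.8 CPM in mutant arches 1 to 5. The gap between the groups ran from 56.8 to 71.4 CPM. The increase was 1.45-fold (log2 fold change 0.54, SE 0.06), and its FDR of 0.000599 was the lowest of all members. *Ltbp2*, *Ltbp3* and *Tgfbi* had log2 fold changes of 0.52, 0.29 and 0.29 with FDR of 0.422, 0.153 and 0.0999.

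*Ltbp1* has a pair of RefSeq promoter windows that lie 173252 bases apart on the plus strand of chromosome 17 and open a long and a short transcript. Both are shown because gene-level counts sum the transcripts of both starts and cannot say which of them rose. Capitals mark the Smad half-site, GTCT or its reverse complement AGAC, in the 250 bases before each start. The first window is chr17:75005279-75005528 and the second is chr17:75178531-75178780, both of GRCm38.p6.
Ltbp1, first start: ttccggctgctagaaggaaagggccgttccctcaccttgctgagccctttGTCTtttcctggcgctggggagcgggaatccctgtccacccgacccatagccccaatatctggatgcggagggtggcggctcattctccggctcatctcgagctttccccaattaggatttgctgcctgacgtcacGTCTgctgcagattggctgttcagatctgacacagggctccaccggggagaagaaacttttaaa
Ltbp1, second start: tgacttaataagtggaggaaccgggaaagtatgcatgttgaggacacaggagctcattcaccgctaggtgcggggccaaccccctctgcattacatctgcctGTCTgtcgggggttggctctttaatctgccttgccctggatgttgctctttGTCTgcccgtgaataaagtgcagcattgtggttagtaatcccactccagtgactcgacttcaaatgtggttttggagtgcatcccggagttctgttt
Each window holds 2 half-sites, which is also the median over all 32851 windows. Promoter windows were given for 37 of the 54 members, 43 windows in all. The GRHL site AACCGGTT was in none of these 43 and in 0.116% of all windows. The E-box CAGGTG was in 11.6% of the members' windows (*Bmp4*, *Bmp6*, *Bmpr1b*, *Ltbp2* and *Smad9*) and in 17.2% of all. The GC-rich Smad site GGCGCC was in 25.6% and 9.59%, and the Smad palindrome GTCTAGAC, which contains the half-site on both strands, in none and 0.167%. All were searched on both strands, and a missing match says only that these letters are not in these 250 bases.

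The *Id* genes encode inhibitors of helix-loop-helix factors and are widely used as readouts of BMP signalling. *Id3* was at 182.8, 205.0, 209.1, 177.0 and 199.4 CPM in wild-type arches 1 to 5 and at 260.0, 210.9, 210.4, 240.4 and 251.1 CPM in mutant arches 1 to 5. The groups met without overlap, at 209.1 CPM for wild-type arch 3 and 210.4 CPM for mutant arch 3. The log2 fold change was 0.27 (SE 0.07, FDR 0.0444), and the FDR was between 0.053 and 0.103 when any 1 arch other than mutant arch 3 was left out. It was 0.00918 with the replicate block and 0.00615 with DESeq2. The intervals of the other *Id* genes spanned 0. *Id1* had a log2 fold change of 0.08 with an interval of -0.24 to 0.39, *Id2* had 0.01 with an interval of -0.12 to 0.15, and *Id4* had -0.19 with an interval of -0.42 to 0.04.

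*Tmem100* encodes a transmembrane protein of endothelium that is induced by BMP9 and BMP10 through ALK1. It was at 3.59, 3.34, 3.24, 2.98 and 2.95 CPM in wild-type arches 1 to 5 and at 4.92, 4.96, 4.81, 6.62 and 4.98 CPM in mutant arches 1 to 5. The groups did not overlap, and mutant arch 4 lay above the other 4 mutant arches. The increase was 1.63-fold (log2 fold change 0.70, SE 0.12, FDR 0.00604) on 73 to 93 reads per wild-type arch and 128 to 186 per mutant arch. The FDR rose to between 0.0131 and 0.0213 without any 1 of the 5 wild-type arches or without mutant arch 2 or 5, and it was 0.0271 with the replicate block and 0.0434 without both wild-type arches low in sensory neuron markers. Summed endothelial markers were 394.4 to 449.0 CPM in wild-type and 434.5 to 514.4 CPM in mutant arches, with 0 of 9 called at FDR below 0.01 and overlapping groups. *Pecam1* (FDR 0.0257) and *Kdr* (FDR 0.0305) had the lowest FDR of this list, both higher in the mutants. Their part in the *Tmem100*, *Eng* and *Tgfbr3* results was not tested.

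Beyond the members, a list of 81 other genes of these pathways was read in the same fit, and 65 of them were tested. At FDR below 0.01, 2 were downregulated (*Msx1* and *Itgb6*) and 2 were upregulated (*Hey1* and *Sost*), 3.08% of the list in each direction against 1.09% and 0.879% of all genes. This list too was chosen with earlier results known, and the study had already reported *Hey1* as upregulated. None of the 4 called genes was called with the replicate block or without both wild-type arches low in sensory neuron markers. Over all genes, 60 were higher and 69 lower in the first of these fits, and 19 and 90 in the second. By role, none of the 8 ligands, 6 receptors, co-receptors and chordin-cleaving proteases or 20 intracellular components tested was called. The calls fell among the 23 extracellular modulators (1 lower, 1 higher) and the 8 targets (1 lower, 1 higher). At FDR below 0.05 with groups that did not overlap, 4 were lower and 4 higher, 6.15% in each direction against 3.18% and 2.97% of all genes. Beside the 4 called genes these were *Bmp8b* (FDR 0.0164) and *Strap* (FDR 0.0398), which were lower, and *Ltbp4* (FDR 0.0243) and *Fstl4* (FDR 0.0396), which were higher, all named here after their values were seen. *Bmp8b*, a BMP ligand gene, had 7 to 20 reads per wild-type arch and 0 to 6 per mutant arch. It met the minimum of 10 reads only through wild-type arches, the group where it is higher, so its place among the lower genes is not independent of that filter. The median log2 fold change of the 65 genes was 0.03.

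*Msx1* and *Msx2* encode homeobox factors that BMP4 induces in facial mesenchyme and that are required for palate and tooth development. *Msx1* was at 201.4, 205.3, 142.0, 153.9 and 168.7 CPM in wild-type arches 1 to 5 and at 94.6, 110.4, 129.4, 103.6 and 110.9 CPM in mutant arches 1 to 5. All mutant arches were below all wild-type arches, and the 2 highest values were those of wild-type arches 1 and 2. These were also the arches with the highest sums of the 7 neural crest mesenchyme markers, 1707 and 1591 CPM against 1322 to 1413 CPM in the other wild-type and 1114 to 1396 CPM in the mutant arches, and the part of that difference in the *Msx1* result was not tested. The decrease was 1.58-fold (log2 fold change -0.66, SE 0.11, FDR 0.00595). *Msx2* was at 69.7, 82.7, 61.9, 50.8 and 70.9 CPM and at 47.6, 51.4, 41.0, 52.7 and 51.8 CPM in the same order, and wild-type arch 4 lay within the mutant range. Its log2 fold change was -0.45 (SE 0.12, FDR 0.0434), and the FDR was between 0.0603 and 0.0952 in 8 of the 10 fits with 1 arch left out (all but those without wild-type arch 4 or mutant arch 1). With both wild-type arches that were low in sensory neuron markers left out, the log2 fold change of *Msx1* was -0.51 (FDR 0.0203) and that of *Msx2* was -0.33 (FDR 0.194). The FDR of *Msx1* was also above 0.01, at up to 0.0183, without wild-type arch 1, 2 or 5 or mutant arch 2, 4 or 5 alone.

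*Itgb6* encodes the beta subunit of an epithelial integrin that releases TGF-beta from its latent complex. It was at 2.41, 2.05, 1.88, 1.45 and 1.82 CPM in wild-type arches 1 to 5 and at 0.785, 0.697, 0.485, 0.676 and 0.425 CPM in mutant arches 1 to 5. The groups did not overlap and the decrease was 3.08-fold (log2 fold change -1.62, SE 0.22, FDR 0.00136). The FDR was 0.0265 with the replicate block and 0.0122 without both wild-type arches low in sensory neuron markers. The summed epithelial markers were lower too, at 321.7 to 431.5 CPM in wild-type and 165.3 to 252.8 CPM in mutant arches. Of the 9 markers, 6 were called lower, and *Krt18*, *Trp63* and *Krt8* were not. Mean levels of *Krt18* were 71.8 CPM in wild-type and 69.6 CPM in mutant arches (FDR 0.848). Those of *Trp63* were 73.1 and 61.9 CPM (FDR 0.0566), and those of *Krt8* 36.8 and 28.4 CPM (FDR 0.203). *Krt5* was the scarcest of the 9, at a mean of 0.0869 CPM in the mutant arches. The part of epithelial markers in the *Itgb6* result was not tested.

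*Hey1*, a transcriptional repressor gene induced by Notch and by BMP9 in endothelium, was at 22.3, 22.3, 23.1, 28.4 and 25.3 CPM in wild-type arches 1 to 5 and at 30.4, 38.9, 41.4, 36.4 and 40.7 CPM in mutant arches 1 to 5. The groups did not overlap, and the increase was 1.54-fold (log2 fold change 0.62, SE 0.10, FDR 0.00354). Without wild-type arch 1, 2, 3 or 5 or mutant arch 2 or 5 its FDR was above 0.01, at up to 0.013. *Sost*, which encodes the BMP and Wnt antagonist sclerostin, had 4 to 15 reads per wild-type arch and 28 to 32 per mutant arch. Its levels were 0.318, 0.539, 0.453, 0.509 and 0.162 CPM and 1.14, 1.16, 0.969, 0.996 and 1.12 CPM in the same order, which did not overlap. The increase was 2.78-fold (log2 fold change 1.48, SE 0.27, FDR 0.0096), and the FDR lay between 0.0128 and 0.0305 when any 1 arch was left out.

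**Figure D4:**
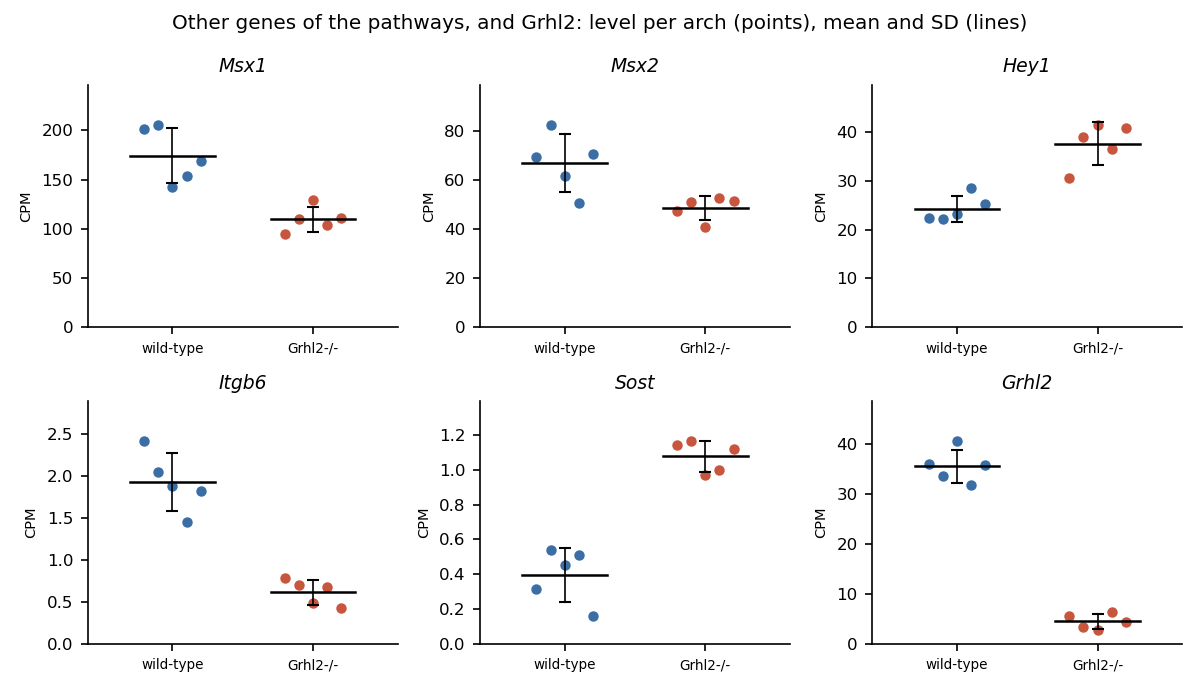
Level in CPM (y axis, from 0) of *Msx1*, *Msx2*, *Hey1*, *Itgb6* and *Sost*, and of the targeted gene *Grhl2*, in each wild-type and *Grhl2*-/- arch (points), with the mean and SD of 5 arches (lines). The groups are apart in each gene but *Msx2*, where wild-type arch 4 lies within the mutant range.

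**Figure D5:**
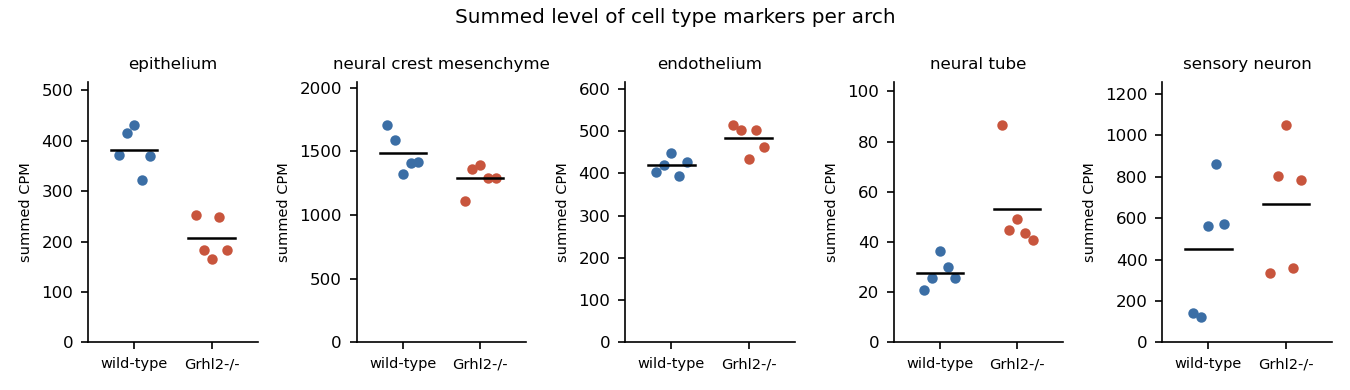
Summed level (CPM, y axis from 0) of the markers of 5 cell types in each wild-type and *Grhl2*-/- arch (points), with the mean of 5 arches (lines). Epithelial and neural tube sums do not overlap between genotypes, the other 3 do, mutant arch 1 is highest in neural tube markers and wild-type arches 1 and 2 are lowest in sensory neuron markers.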

How the data were processed

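RNA from whole PA1 was sequenced by the authors as stranded, ribosome-depleted libraries. STAR alignment to GRCm38 and featureCounts gave the whole-number counts per gene, which the authors deposited raw. Versions of these tools and the annotation release are not given in the sources used here. A second deposited table holds the authors' own limma-voom comparison (log2 fold changes, adjusted p-values, mean log2 expression) and was not used.

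The count minimum for a gene was 10 in 1 arch. TMM factors came from edgeR (version 4.0.16) and the voom fit from limma (version 3.58.1), both in R (version 4.3.3), with genotype as the only term. FDR is Benjamini-Hochberg adjusted over all genes tested, and limma's moderated variances gave SE and 95% intervals. The labels give no origin of the arches beyond genotype and a number, so p-values measure the spread between these samples. Total counts were 22188454 to 28801378 per arch. Arches are numbered 1 to 5 in each genotype as names only. The scripts were tested on simulated counts. No pair of arches of 1 genotype agreed within sampling noise (chi-square per gene at least 6.99).

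Members and lists were chosen with earlier results of these data known. Members were described in full if called, or at FDR below 0.05 with groups that do not overlap, and other pathway genes if called, and *Msx1* and *Msx2* in any case. The Smad half-site was added to the motif search after the data were seen. Exon lengths, coordinates and overlaps are from GENCODE release M21, and promoters from RefSeq (GRCm38.p6). The alternatives tried were DESeq2 (version 1.42.0), quasi-likelihood tests of edgeR, other normalizations and filters, sample quality weights, a replicate block, FDR 0.05, each arch left out in turn and, chosen after seeing the data, both arches low in sensory neuron markers left out.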

Additional observations from a re-analysis of the deposited data

Results flagged for a closer look

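In 9 of 140 groups of 5 arches examined, the highest or lowest arch stood apart from the others by more than Dixon's 95% critical value of the gap divided by the range of log2 values, where chance gives about 7. Follistatin gave the largest such ratio, 0.908, for *Fst* in mutant arch 1 (8.13 CPM, with the next arch at 3.72 CPM). *Tmem100* followed at 0.891 for mutant arch 4 (6.62 against 4.98 CPM). The summed neural tube markers of mutant arch 1 gave 0.748 (86.6 against 49.2 CPM). *Acvr1b*, an activin type I receptor gene, gave 0.816 for wild-type arch 4, which was highest (65.4 against 59.5 CPM). *Bmpr1b* gave 0.782 for mutant arch 1, which was lowest (37.6 against 44.0 CPM). *Ltbp2* gave 0.772 for wild-type arch 1, at 0.0454 CPM, below the level of 3 reads. *Bmp5* gave 0.757 for wild-type arch 4 (15.7 against 13.9 CPM). *Tgfb2* gave 0.729 for mutant arch 5, which was lowest (16.0 against 25.6 CPM), and *Tgfbr1* gave 0.729 for mutant arch 3, which was highest (515.6 against 469.2 CPM).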

How the results depend on the processing

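The fold changes of 16 genes were refitted under the alternatives (the 10 described members, the 5 other pathway genes and *Grhl2*), and none changed sign. *Bmp2* and *Ltbp1* stayed called in all 21 alternatives and *Gdf6* in 20. The number of members called higher (4) and lower (1) became 10 and 1 with DESeq2 or at FDR below 0.05, where the calls over all genes went from 128 higher and 158 lower to 520 and 553 with DESeq2 and to 559 and 564 at FDR below 0.05. They became 2 and 1 with both arches low in sensory neuron markers left out, a fit with fewer samples in which *Tgfbr3* had FDR 0.0466 and *Tmem100* 0.0434. Calls over all genes in that fit were 19 higher and 90 lower. With any 1 arch left out, 2 to 5 members were higher and 1 was lower. Over all genes, 42 to 143 were higher and 110 to 249 lower in those fits. The other pathway genes called (2 lower, 2 higher) became 6 and 5 with DESeq2, 5 and 5 at FDR below 0.05, and 0 and 0 with 8 arches. A minimum of 1 CPM in 5 arches left 1 higher, since *Sost* was no longer tested. With any 1 arch left out, 1 to 3 were lower and 0 to 2 higher.

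The numbers in the labels are shared by some wild-type and mutant arches. Deviations of same-numbered arches correlated at -0.364 to 0.54 over 5 pairs (different numbers: -0.571 to 0.487 over 20), so the check did not show that the number pairs the arches, and the labels do not say what it stands for. The study's methods state that controls were littermates where this could be done, and whether a shared number marks a litter is not given in the sources used here. With it as a replicate block, 0 members were lower and 5 were higher (*Bmp2*, *Fst*, *Id3*, *Ltbp1* and *Tgfb2*), and 0 other pathway genes were called in either direction. Mutant arches 2 and 5 carry numbers of no other arch and add nothing to the genotype difference in this fit. It therefore rests on fewer arches than the fit with genotype alone. *Gdf6* then had FDR 0.0268, *Tgfbr3* 0.0172, *Tmem100* 0.0271, *Msx1* 0.0317, *Itgb6* 0.0265, *Hey1* 0.0168, *Sost* 0.0652, *Bmp4* 0.0589 and *Bmp5* 0.0525, and 60 genes were higher and 69 lower in all. Within each of the 3 shared numbers, every one of the 10 described members differed in the direction of the whole. Depth limits *Bmp3*, *Bmp6*, *Gdf10*, *Inhbb*, *Ltbp2* and *Nog*, whose wild-type means were under 1 CPM.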

Other observations

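Wild-type arch 4 and mutant arch 3 had the lowest sums of endothelial markers of their genotypes, 394.4 and 434.5 CPM, and also of epithelial markers, 321.7 and 165.3 CPM. They were also the lowest arches of their genotypes for 10 of the 53 members, or 18.9%, while this held for 7.35% of all genes tested. These members were *Bmp7*, *Tgfb1*, *Acvrl1*, *Eng*, *Smad6*, *Smad7*, *Bambi*, *Id1*, *Id2* and *Id3*, which include the genes of the endothelial receptors ALK1 and endoglin, both inhibitory Smads and 3 *Id* genes. *Id1*, for example, was at 54.3 CPM in both of these arches and at 65.5 to 89.2 CPM in the other 8. The same arches had the highest sums of sensory neuron markers of their genotypes, 862.3 and 1050 CPM. These arches carry the same number in their labels, and their deviations from the genotype means had the highest correlation of any wild-type and mutant arch (0.54). Wild-type arch 1 carries that number too, and its correlation with mutant arch 3 was -0.189. The pattern was noticed after the values were seen, and no part of it was tested.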
